A study of Mus musculus with 18 samples.

Results

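The subcortical maternal complex was followed through 5 of its genes, Padi6, Ooep, Tle6, Khdc3 and Zbed3, which were chosen by gene symbol from the 30172 genes measured in every library. Earlier results of these data were known when the choice was made. All 5 were detected in all 18 ovary libraries, and all 5 passed the filter on low values in every comparison. The libraries came from whole ovaries of wild-type C57BL/6J F1 females at postnatal day (Pd) 3, 7 and 21. Their mothers ate a diet with 3% methionine (F1-HHcy, for hyperhomocysteinemia, a raised level of homocysteine in blood) or normal chow (F1-Control), per the labels from 4 weeks before mating until the end of lactation, while the study's methods give a longer time before mating. Each of the 6 groups of diet and day had 3 libraries, and the pups themselves were not treated. Batch 1 held both earlier days and batch 2 held Pd21 per the labels, so that diets were compared within a batch, whereas age and batch cannot be told apart between Pd7 and Pd21. Neither the labels nor the methods state whether a library held 1 pup or several, so p-values measure only the spread between these libraries.

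The complex assembles in growing oocytes and lies as a protein layer under the cell surface of the egg and of the early embryo, where it is inherited from the mother and needed for the first cleavages. The transcripts of most of its genes are made while the oocyte grows inside its follicle and are nearly absent from other cells of the ovary. Whole-ovary libraries do not show which cells made a transcript, which leaves this open for Zbed3. PADI6 belongs to the peptidylarginine deiminases and is needed for the cytoplasmic lattices that store proteins in the egg. OOEP (also called FLOPED) and KHDC3 (FILIA) have domains of the KH type, which in other proteins bind RNA. TLE6 is a member of the Groucho family that acts in the oocyte cytoplasm and joins the core of the complex together with OOEP and NLRP5 (MATER), and ZBED3 is a zinc finger protein that joined the list of components later.

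In the GENCODE M21 annotation of GRCm38, Padi6 lies on chromosome 4 from 140727355 to 140742643 on the minus strand and Ooep on chromosome 9 from 78376109 to 78378725 on the minus strand. Khdc3 lies on the same chromosome as Ooep, from 73101836 to 73104438 on the plus strand. Tle6 spans positions 81590904 to 81601073 of chromosome 10 on the minus strand, and Zbed3 spans positions 95323612 to 95337841 of chromosome 13 on the plus strand. The promoters are shown because oocyte transcription factors that are themselves measured here are known to bind short motifs before the genes of growing oocytes. The 250 bases before the start site that RefSeq lists first for each gene (GRCm38.p6) were searched on both strands for CANNTG (the E-box, bound by FIGLA and by SOHLH1 and SOHLH2), TAATTG and TAATTA (bound by NOBOX), TGATTG (bound by LHX8) and TATAAA (a form of the TATA box). CAATTG, which is an E-box, differs from TAATTG in its first letter, and no match of a motif overlapped a match of another motif in these windows. In the following lines the matches are in capitals, the gene's own strand is read 5′ to 3′, and only the longest stretch free of annotated exons is printed. That stretch is chr4:140742644-140742893 for Padi6, chr9:78378726-78378838 for Ooep, chr9:73102205-73102397 for Khdc3 and chr13:95323355-95323604 for Zbed3.
Padi6: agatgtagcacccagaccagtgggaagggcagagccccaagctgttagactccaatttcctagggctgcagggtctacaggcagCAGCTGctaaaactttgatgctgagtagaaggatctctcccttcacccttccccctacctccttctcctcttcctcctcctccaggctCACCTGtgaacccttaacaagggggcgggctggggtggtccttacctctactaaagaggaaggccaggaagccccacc
Ooep: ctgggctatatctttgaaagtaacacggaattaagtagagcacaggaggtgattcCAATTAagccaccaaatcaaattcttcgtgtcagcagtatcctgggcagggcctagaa
Khdc3: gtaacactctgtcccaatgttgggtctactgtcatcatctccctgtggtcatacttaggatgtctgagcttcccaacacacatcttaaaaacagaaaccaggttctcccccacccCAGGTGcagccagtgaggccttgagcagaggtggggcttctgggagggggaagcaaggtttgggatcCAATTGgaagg
Zbed3: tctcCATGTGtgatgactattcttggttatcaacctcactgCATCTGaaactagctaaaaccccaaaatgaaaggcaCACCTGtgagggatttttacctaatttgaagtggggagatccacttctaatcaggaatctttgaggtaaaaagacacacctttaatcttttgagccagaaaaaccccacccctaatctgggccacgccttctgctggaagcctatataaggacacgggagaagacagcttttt
An E-box was present in the searched window of all 5 genes, as it was in 66.2% of all 32851 promoter windows of the same length. Padi6 had 2 of them, 166 and 78 bases before the start site, and Zbed3 had 3, while Khdc3 had 5, of which 2 are in the printed stretch. The single E-box of Ooep and the 2 of Tle6 lie outside the longest exon-free stretch, and Tle6, whose stretch held no match, is not printed. A NOBOX-type match was found in Ooep alone, 195 bases before the start site, where TAATTG was present in 7.17% of all windows and TAATTA in 4.84%. The RefSeq start used for Ooep, position 78378588, lies inside the GENCODE gene. The printed Ooep stretch therefore ends 137 bases before that start, and the match lies nearer to the GENCODE start. TGATTG was found 2 times in Tle6 and in 12.7% of all windows, and TATAAA was found in none of the 5 against 12.4% of all windows. Other forms of the TATA box, such as the tatataag near the end of the printed Zbed3 line, were not searched. These are matches of letters and not sites at which binding was measured.

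Padi6 was the most abundant of the 5 genes in each of the 6 groups on the scale used here, and its level fell in F1-HHcy ovaries at Pd7. Levels are given as FPKM, fragments per kilobase of gene length, scaled to the depth of the library. At Pd3, Padi6 measured 354, 396 and 552 FPKM in the 3 F1-Control libraries and 480, 687 and 587 FPKM in the 3 F1-HHcy libraries. The ranges overlapped, with 2 of 3 F1-HHcy libraries above every control. At Pd7 the controls measured 541, 928 and 739 FPKM and the F1-HHcy libraries 226, 211 and 472 FPKM. All 3 F1-HHcy libraries lay below all 3 controls, and the first 2 replicates lay well below the third. At Pd21 the controls measured 634, 372 and 632 FPKM and the F1-HHcy libraries 682, 353 and 492 FPKM, so the groups were mixed.

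Ooep came next with the gene lengths behind the deposited values, and its level was highest in F1-Control ovaries at Pd7. At Pd3 it measured 176, 199 and 218 FPKM in F1-Control and 281, 385 and 208 FPKM in F1-HHcy ovaries. Replicates 1 and 2 of F1-HHcy lay above the controls and replicate 3 lay among them. At Pd7 it measured 374, 567 and 300 FPKM in F1-Control and 250, 210 and 185 FPKM in F1-HHcy ovaries, and the groups did not overlap. At Pd21 it measured 227, 189 and 159 FPKM in F1-Control and 277, 167 and 240 FPKM in F1-HHcy ovaries, with the groups mixed.

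Tle6 did not reach an adjusted p under 0.05 between the diets on any single day when all libraries were used. At Pd3 it measured 122, 117 and 142 FPKM in F1-Control and 122, 144 and 117 FPKM in F1-HHcy ovaries, and the ranges were nearly the same. At Pd7 it measured 115, 179 and 165 FPKM in F1-Control and 80.7, 73.1 and 140 FPKM in F1-HHcy ovaries. F1-HHcy replicates 1 and 2 were below the controls and replicate 3 lay among them, whereas for Padi6 replicate 3 was below the controls as well. At Pd21 it measured 210, 160 and 145 FPKM in F1-Control and 225, 140 and 202 FPKM in F1-HHcy ovaries, and the groups overlapped.

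Khdc3 was already raised in F1-HHcy ovaries at Pd3. It measured 5.67, 7.74 and 8.18 FPKM in F1-Control and 16.1, 15.9 and 14.8 FPKM in F1-HHcy ovaries, and the groups lay far apart with little spread in either. At Pd7 it measured 11.9, 21.2 and 17.1 FPKM in F1-Control and 9.59, 8.03 and 18.01 FPKM in F1-HHcy ovaries. The ranges overlapped through F1-HHcy replicate 3, while replicates 1 and 2 lay below the controls. At Pd21 it measured 29.7, 20.2 and 26.6 FPKM in F1-Control and 29.4, 22.2 and 27.7 FPKM in F1-HHcy ovaries, and the groups could not be distinguished.

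Zbed3 differed from the other 4 genes in that it was highest at Pd21 by a wide margin. At Pd3 it measured 10.4, 11.7 and 12.6 FPKM in F1-Control and 32.6, 22.6 and 13.8 FPKM in F1-HHcy ovaries. All 3 F1-HHcy libraries lay above the controls, replicate 3 only just. At Pd7 it measured 16.3, 17.5 and 28.2 FPKM in F1-Control and 28.5, 25.4 and 47.2 FPKM in F1-HHcy ovaries, where 2 of 3 F1-HHcy libraries lay above every control. At Pd21 it measured 91.7, 91.7 and 62.4 FPKM in F1-Control and 123, 67.4 and 107 FPKM in F1-HHcy ovaries, and the groups overlapped.

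**Figure D1:**
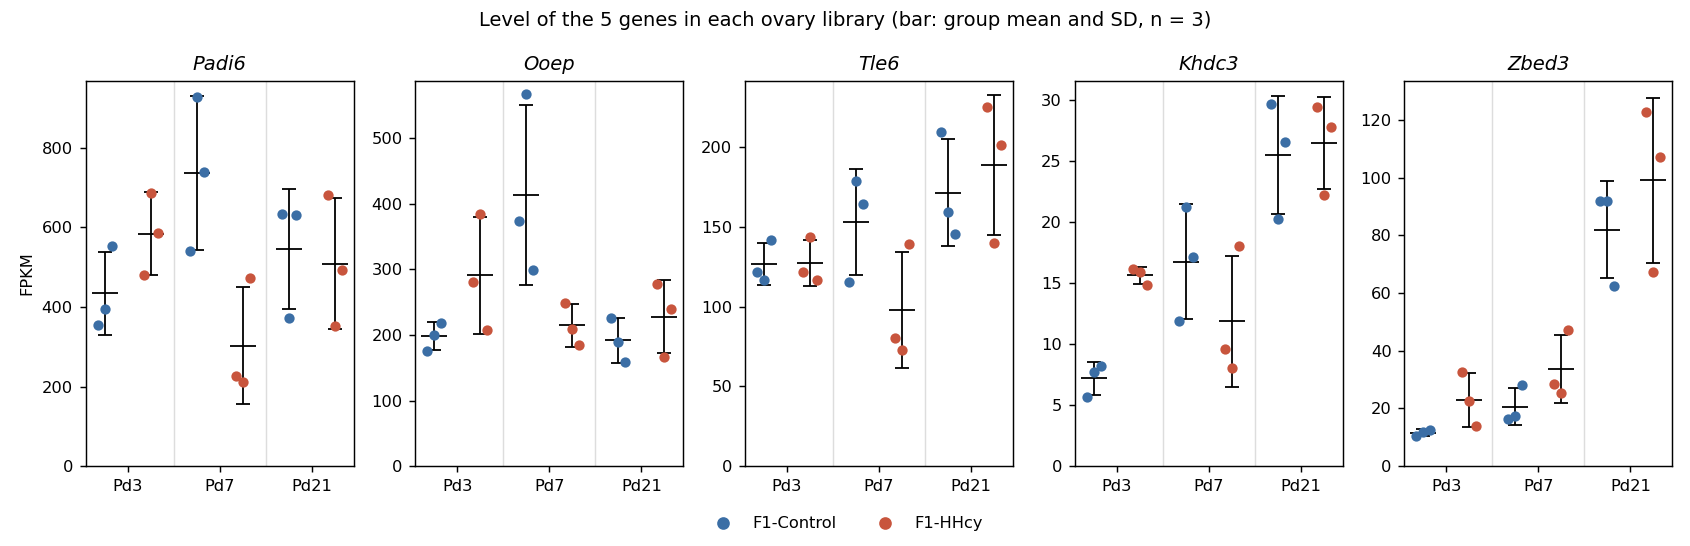
Level of each of the 5 genes (vertical axis, FPKM, own scale per gene) in the 18 ovary libraries by day (horizontal axis) and maternal diet (blue F1-Control, red F1-HHcy). Points are libraries, bars are the group mean and SD (n = 3). For Padi6 and Ooep the 3 F1-HHcy libraries at Pd7 sit below the 3 controls, and Tle6, Khdc3 and Zbed3 have their highest group means at Pd21.

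The order of levels on the FPKM scale was Padi6, Ooep, Tle6, Zbed3 and Khdc3 in all 6 groups. The ranges of Padi6 and Ooep overlapped in both diets at Pd7 and nowhere else, those of Ooep and Tle6 overlapped in both diets at Pd21, and those of Zbed3 and Khdc3 overlapped in F1-HHcy at Pd3 and in F1-Control at Pd7. At the recovered depth of 33630649 to 39399326 fragments per library, Padi6 was covered by 16521 to 76522 fragments and Khdc3, the lowest gene, by 977 to 5656. The 5 genes together took 0.127% to 0.409% of all fragments. This order depends on the gene lengths that were used, which are 11641 bases for Zbed3, 4893 for Khdc3, 2633 for Tle6 and 1207 for Ooep, against longest GENCODE M21 transcripts of 1945, 1681, 2015 and 2138 bases, while that of Padi6 was 2333 bases in both. With the longest transcript as the length, the mean Ooep level was below that of Tle6 in 5 of the 6 groups, for example at 111.7 against 165.7 FPKM in F1-Control ovaries at Pd3, and above it in F1-Control at Pd7. Zbed3 was then above Ooep and Tle6 in 3 groups, F1-HHcy at Pd7 and both diets at Pd21, and above Padi6 in 1 group, F1-HHcy at Pd21. Khdc3 stayed the lowest in all 6. The mean Zbed3 level at Pd21 would be 490.5 FPKM in F1-Control and 592.7 FPKM in F1-HHcy ovaries, in place of 82.0 ± 16.9 and 99.0 ± 28.5 FPKM (SD, n = 3), and would lie beside that of Padi6, at 545.8 and 508.9 FPKM. The length is the same in every library and cancels in a ratio of FPKM between libraries. It enters a fold change only through the 1 FPKM added to each value. The lengths used for Khdc3 and Zbed3 exceed the unions of their GENCODE exons, 2050 and 2231 bases. Fragments from outside these exons may therefore be counted, and their part in the differences between groups was not tested. Khdc3 overlaps Gm20509, and Zbed3 overlaps Snora47 and Gm22661. None of these has a row of its own, so reads of them may be included.

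At Pd3, Khdc3 was the 1 member that passed the test between the diets. It rose from 7.20 ± 1.34 to 15.6 ± 0.696 FPKM (SD, n = 3), which is 1.03 on the log2 scale (SE 0.144, adjusted p = 0.0211), with 3 of 3 F1-HHcy libraries above every control. Fold changes are of FPKM + 1, F1-HHcy against F1-Control, fitted with limma over all genes that passed the filter, with Benjamini-Hochberg adjustment over all of them. Over the 13277 genes tested, 1.64% rose and 1.43% fell at an adjusted p under 0.05. The other members had positive estimates that did not pass, at 0.85 (SE 0.272, adjusted p = 0.128) for Zbed3, 0.52 (SE 0.218, adjusted p = 0.218) for Ooep, 0.44 (SE 0.206, adjusted p = 0.255) for Padi6 and 0.01 (SE 0.127, adjusted p = 0.979) for Tle6. The median of the 5 estimates was 0.52, beside -0.03 over all genes tested. The ranges of the diets did not overlap for Khdc3 and Zbed3, both higher, which happened for 11.8% of genes in the higher and 16.1% in the lower direction.

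Which members passed at Pd3 turned on single libraries. Without F1-HHcy replicate 3, Zbed3 passed at 1.17 (adjusted p = 0.00343) and Ooep with 0.74 (adjusted p = 0.0179). That library was the F1-HHcy library at Pd3 with the lowest Ooep, Khdc3 and Zbed3 levels, and its 8 immediate early genes, which respond within minutes to stress and handling, summed to 2703 FPKM against 252.8 to 315.6 in the controls. The part of this in the result was not tested. The Khdc3 call was lost without F1-HHcy replicate 1 (1.01, adjusted p = 0.0565) or 2 (1.02, adjusted p = 0.0721), and likewise without replicate 1 of F1-Control (0.89, adjusted p = 0.115), 2 (1.09, adjusted p = 0.13) or 3 (1.12, adjusted p = 0.058), with a fold change of at least 0.89 each time, and it was also lost without a filter on low values (adjusted p = 0.0913). An exact permutation test between groups of 3, if 2-sided, has 0.1 as its smallest p.

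At Pd7, Padi6 and Ooep fell in F1-HHcy ovaries. Padi6 went from 735.8 ± 193.3 FPKM in F1-Control to 302.9 ± 146.7 FPKM in F1-HHcy (SD, n = 3), or -1.35 on the log2 scale (SE 0.323, adjusted p = 0.0284). Ooep went from 413.7 ± 137.8 to 214.8 ± 32.5 FPKM, or -0.90 on the log2 scale (SE 0.243, adjusted p = 0.0416). In both, 3 of 3 F1-HHcy libraries lay below every control. The background at Pd7 was high, since 5.88% of 13299 genes rose and 5.98% fell, and 19.5% of genes had ranges without overlap in the higher and 19.5% in the lower direction. Tle6 stood at -0.68 (SE 0.258, adjusted p = 0.111) and Khdc3 at -0.50 (SE 0.284, adjusted p = 0.248), which did not pass. Zbed3 was the only member with a positive estimate, 0.67 (SE 0.259, adjusted p = 0.114). The median of the 5 estimates was -0.68, beside -0.0015 over all genes tested.

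The calls at Pd7 also depended on single libraries and on the filter. Without a filter on low values the adjusted p was 0.13 for Padi6 and 0.141 for Ooep, and with median-ratio scaling of the libraries it was 0.0628 for Ooep. The Padi6 call was lost when F1-HHcy replicate 1 was left out (-1.19, adjusted p = 0.108) or 2 (-1.13, adjusted p = 0.106), and without replicate 2 of F1-Control (-1.16, adjusted p = 0.0989). The Ooep call was lost without any F1-HHcy replicate (-1.02 without 1, -0.89 without 2 and -0.80 without 3, adjusted p 0.0828 to 0.125), without replicate 1 of F1-Control (-0.95, adjusted p = 0.0702) and without its replicate 2 (-0.65, adjusted p = 0.0789). In contrast, leaving out replicate 3 of F1-HHcy made Tle6 pass (-0.96, adjusted p = 0.0442), and leaving out replicate 3 of F1-Control made Zbed3 pass (0.91, adjusted p = 0.0397). F1-HHcy replicate 3 had the highest Padi6, Tle6, Khdc3 and Zbed3 levels of its group and the lowest Ooep level. Its immediate early genes summed to 364.8 FPKM, against 32.1 to 75.7 in the controls, and the part of this was not tested.

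**Figure D2:**
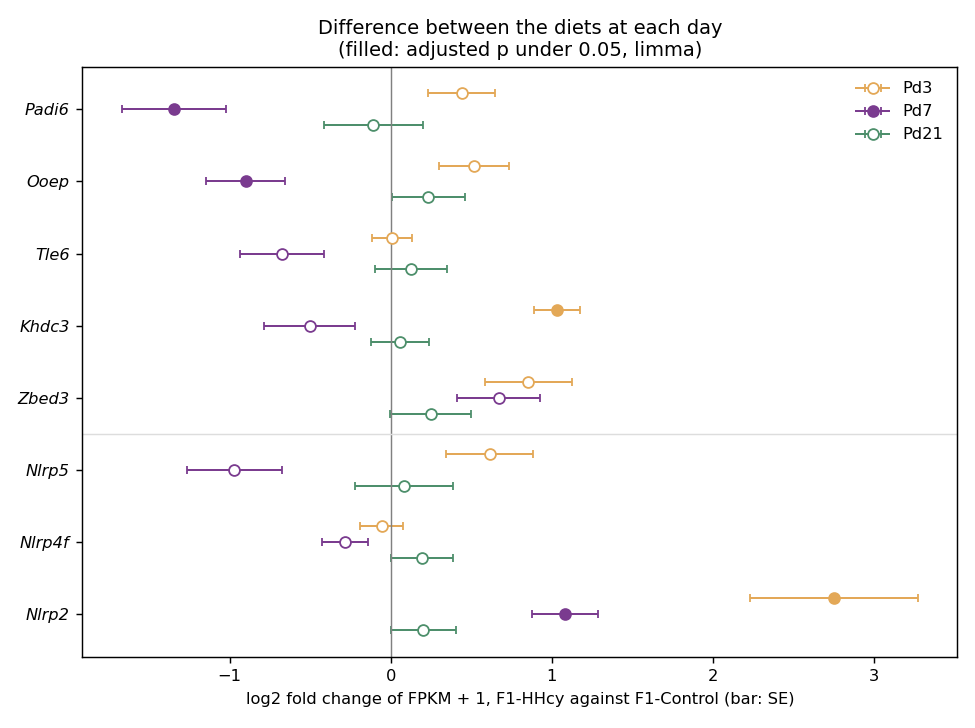
Difference between the diets (horizontal axis, log2 fold change of FPKM + 1, F1-HHcy against F1-Control, bar SE) for the 5 genes and, below the line, the 3 Nlrp genes of the complex, at Pd3, Pd7 and Pd21. Filled points have an adjusted p under 0.05 in limma; at Pd7 Padi6 and Ooep lie to the left of 0 and Zbed3 and Nlrp2 to the right.

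At Pd21 no member passed the test between the diets. The estimates lay between -0.11 for Padi6 and 0.25 for Zbed3, each with an adjusted p of 0.9996 in limma, and the unadjusted p was under 0.05 for 0 of the 5. The spread allows differences in either direction, with 95% intervals on the log2 scale of -0.81 to 0.59 for Padi6, -0.29 to 0.75 for Ooep, -0.39 to 0.64 for Tle6, -0.36 to 0.47 for Khdc3 and -0.33 to 0.83 for Zbed3. Of 13350 genes tested, 0% rose and 2.23% fell, and the ranges did not overlap for 1.92% of genes in the higher and 8.61% in the lower direction. None of the 5 was among them. The F1-Control libraries at Pd21 carried 102.4 to 521.5 FPKM of 8 oviduct and multiciliated cell markers summed, against 11.5 to 27.1 in F1-HHcy, and the part of this in the values of the complex was not tested.

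The diet effect at Pd7 was compared with that at Pd3 in 1 model of all 18 libraries. No member passed this test. The difference was -1.78 (SE 0.457, adjusted p = 0.0943) for Padi6, -1.42 (SE 0.357, adjusted p = 0.0886) for Ooep, -1.54 (SE 0.346, adjusted p = 0.0605) for Khdc3, -0.68 (SE 0.336, adjusted p = 0.376) for Tle6 and -0.18 (SE 0.427, adjusted p = 0.87) for Zbed3. All 5 estimates were negative, and of 14607 genes 0.103% passed in the higher and 0.308% in the lower direction. Padi6 passed without F1-HHcy Pd7 replicate 3 (-2.15, adjusted p = 0.041), Ooep without F1-HHcy Pd3 replicate 3 (-1.64, adjusted p = 0.0242), and Khdc3 without either of these libraries (-1.86, adjusted p = 0.016, and -1.57, adjusted p = 0.0426) or without F1-Control Pd7 replicate 1 (-1.75, adjusted p = 0.0255). Between Pd21 and Pd7, where 0.986% of genes passed in the higher and 2.9% in the lower direction, the differences were 1.24 (adjusted p = 0.152) for Padi6, 1.14 (adjusted p = 0.0918) for Ooep, 0.80 (adjusted p = 0.203) for Tle6, 0.56 (adjusted p = 0.378) for Khdc3 and -0.42 (adjusted p = 0.6) for Zbed3, again without a call. Without F1-HHcy Pd7 replicate 3 Padi6 passed here (1.60, adjusted p = 0.0465), and without F1-Control Pd7 replicate 3 Ooep did (1.34, adjusted p = 0.039).

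Between Pd3 and Pd7, 2 of the 5 genes rose in F1-Control ovaries and none passed the test in F1-HHcy ovaries. In F1-Control, Khdc3 rose by 1.09 on the log2 scale (SE 0.245, adjusted p = 0.0112) and Ooep by 1.02 (SE 0.253, adjusted p = 0.019), where 5.27% of 14607 genes rose and 6.08% fell. Padi6 had an estimate of 0.75 (SE 0.323, adjusted p = 0.138), Zbed3 of 0.74 (SE 0.302, adjusted p = 0.117) and Tle6 of 0.25 (SE 0.237, adjusted p = 0.514). In F1-HHcy, where 2.29% rose and 3.18% fell, the estimates were -1.03 for Padi6 (SE 0.323, adjusted p = 0.0671), -0.40 for Ooep, -0.43 for Tle6, -0.45 for Khdc3 and 0.56 for Zbed3, the last 4 with adjusted p-values of 0.279 to 0.359. The difference between these changes in the diets is the same contrast as that of the diet effects given above. The Khdc3 call in F1-Control was lost without F1-Control Pd3 replicate 1 (0.95, adjusted p = 0.068) and without F1-Control Pd7 replicate 2 (0.91, adjusted p = 0.054) or 3 (1.06, adjusted p = 0.0535), and the Ooep call without F1-Control Pd3 replicate 1 (0.93, adjusted p = 0.0894) or 2 (1.02, adjusted p = 0.0599) and without F1-Control Pd7 replicate 2 (0.76, adjusted p = 0.0859). Padi6 passed in F1-HHcy, as a fall, without F1-HHcy Pd3 replicate 1 (-1.17, adjusted p = 0.0445) or F1-HHcy Pd7 replicate 3 (-1.40, adjusted p = 0.0354).

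From Pd7 to Pd21 Zbed3 rose in both diets and Ooep went down in the controls. Zbed3 rose by 1.96 on the log2 scale (SE 0.302, adjusted p = 0.000206) in F1-Control and by 1.54 (SE 0.302, adjusted p = 0.00434) in F1-HHcy ovaries. Both Zbed3 calls were kept whichever of the 6 libraries was left out. Ooep fell by 1.07 on the log2 scale in F1-Control (SE 0.253, adjusted p = 0.00497), which also held without each of the 6 libraries, and was at 0.07 in F1-HHcy (SE 0.253, adjusted p = 0.885). In F1-HHcy, Khdc3 rose by 1.16 (SE 0.245, adjusted p = 0.00645) and Tle6 by 0.97 (SE 0.237, adjusted p = 0.012), while in F1-Control they were at 0.60 (adjusted p = 0.0756) and 0.17 (adjusted p = 0.614). Padi6 passed in neither diet, at -0.44 (adjusted p = 0.324) in F1-Control and 0.80 (adjusted p = 0.0897) in F1-HHcy. Of all genes, 18.2% rose and 12.1% fell in F1-Control, and 10.4% rose and 9.19% fell in F1-HHcy, and these changes include the change of batch. In F1-HHcy the Tle6 call was lost without Pd7 replicate 1 (0.87, adjusted p = 0.0643) or 2 (0.80, adjusted p = 0.082) or Pd21 replicate 3 (0.91, adjusted p = 0.0576), the Khdc3 call without Pd7 replicate 2 (0.94, adjusted p = 0.0524), and Padi6 passed without Pd7 replicate 3 (1.17, adjusted p = 0.0152). In F1-Control, Khdc3 passed without Pd7 replicate 2 (0.78, adjusted p = 0.0407).

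**Figure D3:**
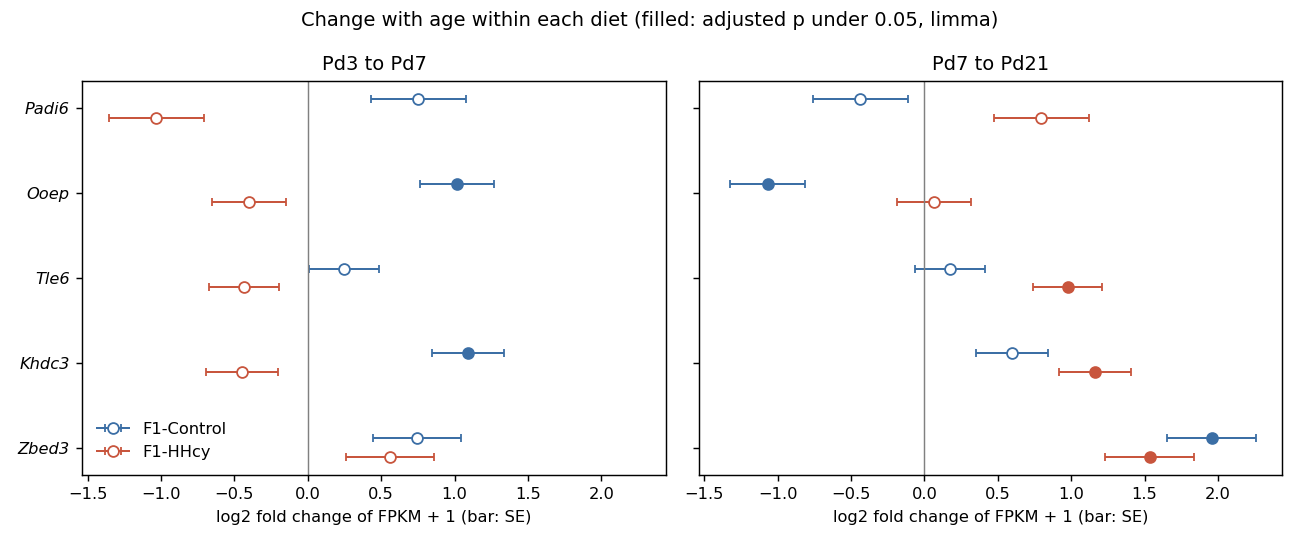
Change with age (horizontal axis, log2 fold change of FPKM + 1, bar SE) of the 5 genes from Pd3 to Pd7 and from Pd7 to Pd21 in F1-Control (blue) and F1-HHcy ovaries (red). Filled points have an adjusted p under 0.05 in limma; from Pd3 to Pd7 the 2 filled points, Ooep and Khdc3, are both F1-Control, and from Pd7 to Pd21 Zbed3 is filled in both diets.

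The level of Zbed3 relative to Padi6 in the same library differed between groups, which was seen in the values and then computed without a test. Zbed3 stood at 2.94%, 2.96% and 2.29% of the Padi6 level in the F1-Control libraries at Pd3 and at 6.80%, 3.29% and 2.34% in F1-HHcy. At Pd7 it stood at 3.01%, 1.88% and 3.81% in F1-Control and at 12.6%, 12.1% and 10.01% in F1-HHcy. At Pd21 it stood at 14.5%, 24.6% and 9.89% in F1-Control and at 18%, 19.1% and 21.8% in F1-HHcy. The F1-HHcy libraries at Pd7 were above all controls of that day and within the range of the Pd21 controls. The share of other gene pairs without overlap is not given, so this has no background. A ratio within a library does not depend on the scaling of the library, it does not show which of the genes moved, and its size depends on the lengths used for the genes.

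**Figure D4:**
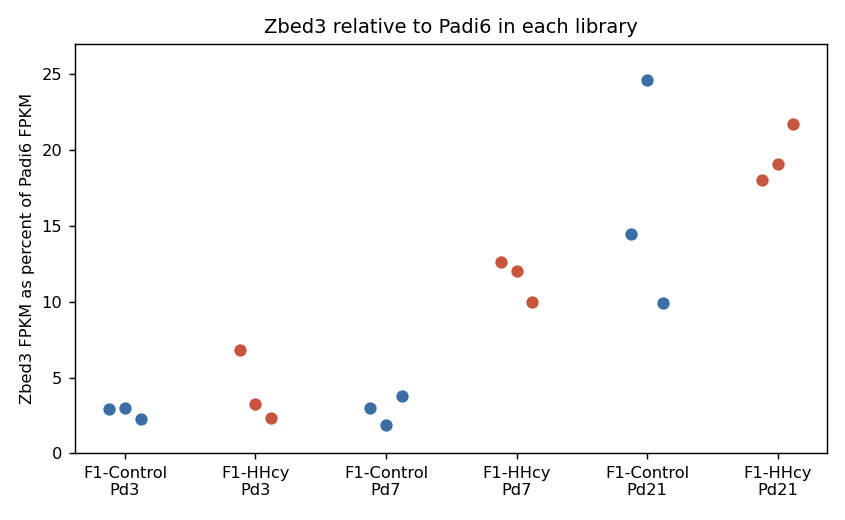
Zbed3 FPKM as a percentage of Padi6 FPKM (vertical axis) in each of the 18 libraries, grouped by diet and day (horizontal axis). Points are libraries; the 3 F1-HHcy libraries at Pd7 lie between 10.01% and 12.6%, above the 3 controls of that day at 1.88% to 3.81%.

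The Nlrp genes that take part in the complex did not move together. Nlrp5, which encodes the scaffold protein MATER, measured 195.0, 306.6 and 147.2 FPKM in F1-Control and 95.01, 80.2 and 150.6 FPKM in F1-HHcy ovaries at Pd7, and its log2 fold change was -0.97 (SE 0.294, adjusted p = 0.0594), which did not pass. Nlrp4f measured 71.1, 86.1 and 70.8 FPKM in F1-Control and 66.6, 59.3 and 60.5 FPKM in F1-HHcy ovaries at Pd7, with all 3 F1-HHcy libraries lower and a log2 fold change of -0.28 (adjusted p = 0.205). Nlrp2 rose at Pd7, from 6.58, 7.54 and 12.1 to 19.9, 17.3 and 20.1 FPKM (log2 fold change 1.08, SE 0.203, adjusted p = 0.0111). At Pd3 Nlrp2 measured 0.142, 0.115 and 0.393 FPKM in F1-Control and 14.3, 10.02 and 2.19 FPKM in F1-HHcy ovaries (log2 fold change 2.75, SE 0.522, adjusted p = 0.0401). F1-HHcy replicate 3 was again the lowest of its group. All 3 controls lay under 1 FPKM, so the gene passed the filter only through the F1-HHcy libraries. That call is therefore no independent support, and the fold change depends on the 1 FPKM added to each value. At Pd3 the estimates were 0.61 (adjusted p = 0.232) for Nlrp5 and -0.06 (adjusted p = 0.833) for Nlrp4f. At Pd21 none of the 3 passed.

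The gene families of the 5 genes were set beside them. Of the peptidylarginine deiminases, Padi6 averaged 518.6 FPKM over the 18 libraries, while the other 4 averaged 0.0587 to 0.742 FPKM. Of the 6 genes with KH domains of the oocyte type, Ooep averaged 256.2, Khdc1b 139.8 and Dppa5a 106.2 FPKM. At Pd3, 3 of these 6 rose with the maternal diet, Khdc3, Dppa5a (1.56, adjusted p = 0.0141) and Khdc1a (1.82, adjusted p = 0.0167), and none fell, with a median of 1.35. At Pd7, 1 of the 6 fell, Ooep, and none rose, with all 6 estimates below 0 and a median of -0.49. In F1-Control from Pd3 to Pd7, 6 of the 6 rose. Over all genes tested, 1.64% rose with the diet at Pd3, 5.98% fell with it at Pd7, and 5.27% rose from Pd3 to Pd7 in F1-Control. Dppa5a and Khdc1a, unlike Ooep and Khdc3, passed the test of the difference between the diet effects at Pd7 and Pd3 (-2.24, adjusted p = 0.00681, and -2.29, adjusted p = 0.00724). Of the Groucho family, Tle5 averaged 248.7 FPKM and Tle6 144.2, and at Pd7 Tle4 alone of the 6 tested fell (-0.63, adjusted p = 0.0457). Of 4 Zbed genes, Zbed3 was the highest, at a mean of 45.0 FPKM, and none passed between the diets on any day.

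The genes of growing oocytes were described beside the complex, a list of 11 with genes of the egg coat and of secreted factors as well as genes such as Npm2 and Zar1, whose products stay in the oocyte. At Pd3, 5 of 11 rose (Npm2, Zar1, Zp3, Gdf9 and Kpna7) and none fell, with a median log2 fold change of 1.67 against 0.52 for the 5 members. Zp3, of the egg coat, rose by 1.15 (adjusted p = 0.0486) and Gdf9, a growth factor from oocytes, by 1.85 (adjusted p = 0.0388). At Pd7, 2 of the 11 rose, Bmp15 (1.82, adjusted p = 0.003) and Oosp1 (0.90, adjusted p = 0.0119), and 1 fell, Zp2 (-1.17, adjusted p = 0.0142). The median was 0.24 against -0.68 for the members. From Pd3 to Pd7, 10 of the 11 rose in F1-Control and 1 in F1-HHcy ovaries, against 2 and 0 of the 5 members. Over all genes, 5.27% rose in F1-Control and 2.29% in F1-HHcy. Estimates were above 0 for 11 of the 11 in F1-Control and for 8 in F1-HHcy. Between the diets, 1.64% of all genes rose at Pd3, and 5.88% rose and 5.98% fell at Pd7. At Pd21 none of the 11 passed.

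The list of oocyte transcription factors held the 5 whose motifs were looked for in the promoters and Taf4b, for which no motif was searched. At Pd7, those 5 fell, among them Sohlh1 (-2.66, adjusted p = 0.00121), Figla (-2.17, adjusted p = 0.0031) and Nobox (-1.18, adjusted p = 0.0153), and Taf4b rose by 0.60 (adjusted p = 0.0492). At Pd3 none of the 6 passed, with a median of -0.88, and at Pd21 none of the 5 tested did, with 2 estimates above 0, 3 below it and a median of -0.02. Of 10 other maternal effect genes, whose products also support the early embryo, 2 rose at Pd3, Npm2 and Zar1, which are also 2 of the 5 counted among the genes of growing oocytes, and 2 fell at Pd7, Dppa3 by 1.16 (adjusted p = 0.0316) and Kdm1b by 1.00 on the log2 scale (adjusted p = 0.00824). Beside these counts, 1.64% of all genes tested rose at Pd3, and 5.88% rose and 5.98% fell at Pd7.

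**Figure D5:**
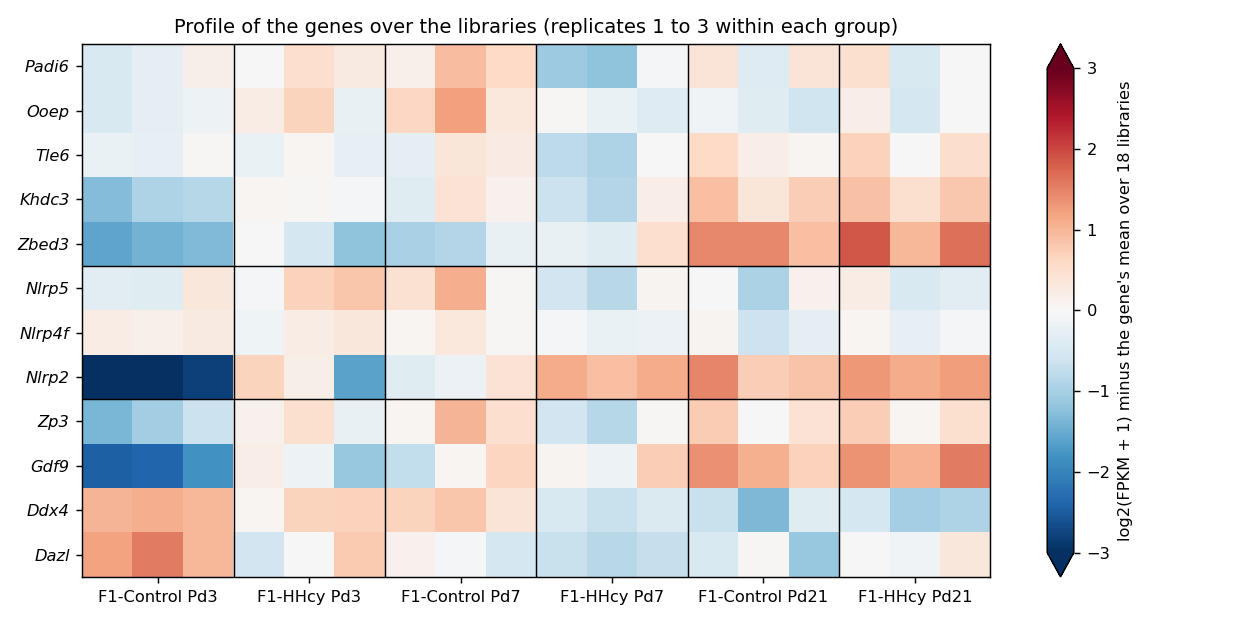
Profile of the 5 genes, the 3 Nlrp genes and 4 reference genes over the 18 libraries (columns, replicates 1 to 3 within each group). Colour is log2(FPKM + 1) minus the gene's mean over all libraries, from blue (below) to red (above), with values beyond the ends of the scale drawn in the end colours; Padi6, Ooep and Tle6 stay near their mean in most libraries, Zbed3 and Gdf9 run from blue at Pd3 to red at Pd21, and Ddx4 runs the other way.

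In whole ovary, fewer oocytes and less RNA per oocyte cannot be told apart, and at Pd7 5 of 6 germ cell genes fell in F1-HHcy ovaries, while none of them passed the test at Pd3 or Pd21. The share of all genes tested that fell at Pd7 was 5.98%. Ddx4, a helicase that marks germ cells of all stages, measured 20.9, 21.9 and 20.6 FPKM in F1-Control and 10.3, 16.1 and 16.4 FPKM in F1-HHcy ovaries at Pd3 (log2 fold change -0.56, adjusted p = 0.122). At Pd7 it measured 16.2, 18.4 and 13.2 FPKM in F1-Control and 6.84, 5.85 and 6.95 FPKM in F1-HHcy ovaries (log2 fold change -1.16, adjusted p = 0.00382). F1-HHcy libraries lay below every control on both days. The summed level of 7 erythroid markers at Pd3 ran from 3941 to 11290 FPKM in F1-Control and from 784.1 to 1108 FPKM in F1-HHcy ovaries. The summed level of 6 germ cell genes ran from 132.7 to 264.3 FPKM in F1-Control and from 52.7 to 60.1 FPKM in F1-HHcy ovaries at Pd7, and none of the list was at 0 in a whole group. The summed level of 8 granulosa cell markers at Pd7 ran from 344.3 to 577.8 FPKM in F1-Control and from 590.2 to 855.8 FPKM in F1-HHcy ovaries, and that of the erythroid markers from 925.1 to 5791 FPKM and from 286.8 to 501.8 FPKM. Among the 8 granulosa cell markers, 1 passed at Pd7, Inha (1.40, adjusted p = 0.0497), beside 5.88% of all genes that rose. Of their estimates, 6 were above 0 and 2 below it. The part of these marker levels in the values of the complex was not tested.

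Each gene was also set against Ddx4 in the same library, as a log2 ratio, and the diets were compared over Pd3 and Pd7 with the labels permuted within each day. The ratio was higher in F1-HHcy by 1.62 for Zbed3 and 1.12 for Khdc3, both with a 2-sided exact p of 0.005, the smallest that the 400 splits allow. It was higher by 0.67 for Ooep (exact permutation p = 0.015) and 0.52 for Tle6 (exact permutation p = 0.025), and by 0.41 for Padi6 (exact permutation p = 0.2). These 5 p-values are not adjusted. The same test passed at 0.05 for 90.1% of 13997 genes in the higher and 0.379% in the lower direction, with a median difference of 0.85, and Ddx4 itself was lower by 0.86 on the log2 scale. Against that background, over Pd3 and Pd7 together, Zbed3 and Khdc3 were above the median of all genes and Ooep, Tle6 and Padi6 below it. At Pd3 taken alone, all 5 ratios were higher in F1-HHcy without overlap, by 1.60 for Khdc3, 1.42 for Zbed3, 1.08 for Ooep, 1.00 for Padi6 and 0.57 for Tle6. Ddx4 itself was at -0.56 on that day and Tle6 itself at 0.01, against a median of -0.03 over all genes tested. The share of all genes whose ratios did not overlap is not given for single days, so this count has no background. At Pd7 the ratios of Zbed3 (1.83) and Khdc3 (0.65) were higher without overlap, and those of Tle6 (0.48), Ooep (0.25) and Padi6 (-0.19) overlapped between the diets. Ddx4 itself had a log2 fold change of -1.16 at Pd7, against a median of -0.0015 over all genes tested. The fall of Ddx4 alone raises the ratio of a gene that did not change. Khdc3 itself was at -0.50 on that day and Zbed3 at 0.67. With Dazl, another germ cell gene, in place of Ddx4, Zbed3 kept an exact permutation p under 0.05 and Khdc3, Ooep and Tle6 did not.

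The members were not alike over the 18 libraries. The root mean square distance between their log2 profiles, each centred on its own mean, was smallest for Padi6 and Tle6 at 0.367 and largest for Ooep and Zbed3 at 1.30. Tle6 lay closest to the average profile of the 5 (0.233) and Zbed3 farthest from it (0.807). Of the genes with a mean of at least 1 FPKM, the 10 whose profile was nearest to that average were Pecr (0.173), Efcab6 (0.191), Avpi1 (0.212), Kcnh3 (0.224), Parp12 (0.228), Bpgm (0.228), Ssc4d (0.231), Chga (0.232), Crtap (0.240) and Sgsm1 (0.245). Taken one by one, Padi6 was nearest to Mtmr14 (0.261), Ooep to Setd4 (0.208), Tle6 to Cltb (0.178), Khdc3 to Zp1 (0.198), which encodes an egg coat protein, and Zbed3 to Zfp750 (0.175). The distances are a description over 18 libraries that share 2 batches and 3 ages.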

How the data were processed

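RNA of 18 whole-ovary libraries was extracted with TRIzol and sequenced as stranded poly-A libraries. The submitters' processing notes name FastQC 0.11.9, Trimmomatic 0.39, STAR 2.7.9a, featureCounts 2.0.1 and DESeq2 1.36.0 and the builds GRCm38 and mm10, without stating which step made the table. The authors deposited 1 linear value per gene symbol and library without naming the unit. These deposited values were read as FPKM, because 1 length per gene gave whole fragments in each library for all (100.0%) of 27294 genes seen in 3 or more libraries (tolerance 0.05). The counting mode for strand is not given in the sources used here.

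Diets were compared per day with limma 3.58.1 (R 4.3.3) on log2(FPKM + 1) with a mean-variance trend, keeping genes that reached 1 FPKM in 3 or more of the 6 libraries. Ages and differences of diet effects used 1 model of all 18 libraries. A call needed a p under 0.05 after Benjamini-Hochberg adjustment over every gene in the fit. The fit was tested on simulated data. The ratio to Ddx4 was tested with exact permutations. For these ratios a Benjamini-Hochberg step over the 5 genes had been planned and was not applied. Replicate numbers are not shown to pair the libraries, since the correlation of deviations ran from -0.338 to 0.0872, which cannot exclude a pairing. Libraries of a group differed by at least 12.4 times the counting variance, so none was the same library sequenced again. Separate libraries of the same RNA are not excluded by this. The members and lists were chosen with earlier results of these data known. Of the lists, the text names the Nlrp genes, Ddx4, Dazl, and of each other list at most the 3 highest by mean and those 2 whose p at Pd7 is smallest, with members throughout, and Khdc1a, Zar1, Kpna7 and Taf4b were named after their values were seen. H1foo and Aes had no row. Alternatives were a pseudocount of 0.1, no filter, the criterion of the study's volcano plots, all libraries in 1 model, median-ratio scaling, a replicate block, each library left out, and, added after seeing the data, limma-voom on the recovered fragments and the longest transcript as length. Descriptions used Python 3.11.15 (numpy 2.4.6 with pandas 2.3.3), and matplotlib 3.10.9 drew the plots.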

Additional observations from a re-analysis of the deposited data

Results flagged for a closer look

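For 6 genes set beside the complex, the diet effect differed between Pd7 and Pd3 in the test of that difference (limma on all 18 libraries, log2 scale, Benjamini-Hochberg adjustment over 14607 genes). The difference was -2.24 for Dppa5a (adjusted p = 0.00681) and -2.29 for Khdc1a (adjusted p = 0.00724), both KH domain genes. It was -2.31 for Zp2 (adjusted p = 0.0255), -2.14 for Zp3 (adjusted p = 0.0331), -1.71 for Npm2 (adjusted p = 0.0281) and -2.49 for Zar1 (adjusted p = 0.0281), which are genes of growing oocytes. None of Padi6, Ooep, Tle6, Khdc3 and Zbed3 passed this test. Each of the 12 libraries of both days was left out in turn, as an alternative chosen after seeing the data. Dppa5a and Khdc1a passed each time, at -2.44 to -1.99 and -2.54 to -2.10. The calls of Zar1 (-2.82 to -2.28), Zp2 (-2.50 to -2.09) and Zp3 (-2.39 to -1.89) were each lost in 6 of the 12 fits, those without F1-HHcy Pd3 replicate 2, F1-HHcy Pd7 replicate 1 or 2, F1-Control Pd3 replicate 1 or 2, or F1-Control Pd7 replicate 2. That of Npm2 (-1.92 to -1.53) was lost in 7, those and the fit without F1-HHcy Pd7 replicate 3. The highest adjusted p was 0.114 for Zp2 and Npm2, 0.12 for Zar1 and 0.137 for Zp3.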

How the results depend on the processing

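Of 255 values of single members under settings that kept all libraries, 249 kept their direction and their side of the threshold, 5 lost a call and 1 gained a call, and none changed direction. The number of members called at Pd3, 1 as reported, was 2 by the criterion of the study's volcano plots, 0 without a filter on low values and 0 with a replicate block (Khdc3 1.03, adjusted p = 0.108). The number called at Pd7, 2 as reported, was 4 by that criterion, 0 without a filter and 1 with median-ratio scaling, and with a replicate block it was 3, since Zbed3 passed (0.67, adjusted p = 0.0173). The criterion of the volcano plots was taken as an unadjusted limma p under 0.05 and a log2 fold change beyond 0.58 in size. The share of all genes that met it is not given here, so its counts have no background. The replicate numbers are not shown to pair the libraries, because 0 of 6 libraries at Pd3, 3 of 6 at Pd7 and 0 of 6 at Pd21 deviated most like the library of the other diet with their own number. The cause of these shifts was not tested. The other counts, and those with limma-voom on recovered fragments, were as reported.

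With 1 library left out, 278 of 330 member values kept direction and side of the threshold, 23 lost a call, 15 gained a call and 14 changed sign. The number of members called ran from 0 to 3 at Pd3, from 0 to 3 at Pd7 and was 0 at Pd21. It ran from 0 to 2 (F1-Control) and 0 to 1 (F1-HHcy) for Pd3 to Pd7, from 2 to 3 and 1 to 4 for Pd7 to Pd21, from 0 to 2 for the diet effect at Pd7 minus Pd3, and from 0 to 1 at Pd21 minus Pd7. Values that changed sign were never called: for the diet at Pd21, Khdc3 ran from -0.093 to 0.17, Padi6 from -0.36 to 0.13 and Tle6 from -0.013 to 0.33, for the diet at Pd3 Tle6 ran from -0.083 to 0.090, for Pd7 to Pd21 Ooep in F1-HHcy ran from -0.091 to 0.27 and Tle6 in F1-Control from -0.017 to 0.30, and for the diet effect at Pd7 minus Pd3 Zbed3 ran from -0.50 to 0.10.

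The ratio to Ddx4 with Dazl in its place was 1.15 for Khdc3 (exact permutation p = 0.055), 0.69 for Ooep (exact permutation p = 0.22) and 0.55 for Tle6 (exact permutation p = 0.185). With 1 library left out it ran from 1.38 to 1.83 for Zbed3, 0.98 to 1.20 for Khdc3, 0.57 to 0.83 for Ooep, 0.40 to 0.62 for Tle6 and 0.24 to 0.51 for Padi6. The exact p of Ooep passed 0.05 without any F1-Control Pd3 library (0.065, 0.065 and 0.055), and that of Tle6 reached 0.05 to 0.06 without F1-Control Pd3 replicate 2, F1-HHcy Pd7 replicate 3 or F1-Control Pd7 replicate 1 or 2. The members had at least 977 fragments in every library.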
